A study of Homo sapiens with 7 samples.

Results

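Long noncoding RNAs that are retained in the nucleus, and long noncoding RNAs that host small nucleolar RNAs (snoRNAs), were followed in human erythroid cells in which the gene TMCC2 had been repressed. The members were chosen by symbol: NEAT1, MALAT1 and MIAT as nuclear RNAs, and GAS5, SNHG1, SNHG5, SNHG8 and SNHG9 as snoRNA hosts. Of these 8 symbols, 5 matched a row of the deposited count table, which holds 32738 gene rows. They were NEAT1, MALAT1, MIAT, SNHG8 and SNHG9, and all 5 passed the filter on low counts that left 10212 genes for testing. GAS5, SNHG1 and SNHG5 matched no row and were not analysed here. The list was drawn up with earlier results of these data in view. MIAT had been named for its small unadjusted p with guide 2 against the non-targeting guide, and SNHG9 for that between the guides. The fold changes of the members are therefore given as descriptions, with an SE and a 95% interval and without a p-value.

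The cells were HUDEP-2, an immortalised erythroid progenitor line from human umbilical cord blood that matures towards red cells when its medium is changed. All 7 libraries came from cells infected with CRISPR interference lentivirus, in which a guide RNA brings a catalytically dead Cas9 with a repressor domain to a chosen stretch of DNA. All cultures were then differentiated for 72 h with 3 IU/ml erythropoietin. The 3 control libraries carried a non-targeting guide, and guide 1 and guide 2, with 2 libraries each, were aimed at regulatory DNA upstream of the erythroid form of TMCC2. HUDEP-2 is a single cell line, and the labels do not say whether the replicates were separate cultures, so the spread between replicates may be technical.

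NEAT1 is the scaffold of paraspeckles, nuclear bodies in which proteins such as SFPQ and NONO gather on the long form of the RNA. A short polyadenylated form shares its beginning. MALAT1 is an abundant RNA that concentrates in nuclear speckles, where splicing factors are stored. Its mature end carries no poly(A) tail: RNase P cuts the primary transcript, releases a small tRNA-like RNA and leaves an end that folds into a triple helix. MIAT is a nuclear RNA with repeats of a sequence that resembles the intron branch point and binds splicing factor 1. SNHG8 and SNHG9 are short spliced RNAs. The snoRNAs they host are cut from spliced-out introns and guide pseudouridylation, the isomerisation of chosen uridines in other RNAs. Spliced host RNAs with short open reading frames are known targets of nonsense-mediated decay.

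The libraries were made with Smart-seq2, which primes cDNA from poly(A) with oligo(dT), copies full-length molecules and marks neither strand nor molecule. Stretches of A inside an RNA can serve as priming sites, so runs of A in MALAT1 and at the end of NEAT1 are shown, in capitals, with their flanks. Transcript sequences and positions are from GENCODE release 29. The MALAT1 stretch covers positions 8277 to 8409 of the 8708-nt transcript MALAT1-202, with its run of 13 A starting at position 8337, between U-rich sequence and the start of the tRNA-like RNA.
MALAT1-202: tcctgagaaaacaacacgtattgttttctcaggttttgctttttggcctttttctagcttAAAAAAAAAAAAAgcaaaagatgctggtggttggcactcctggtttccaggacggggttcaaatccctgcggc
The last 80 nt of the 22743-nt transcript NEAT1-202, the long form of NEAT1, positions 22664 to 22743, end in shorter runs of A that follow U-rich sequence, with runs of 4 or more A in capitals.
NEAT1-202 end: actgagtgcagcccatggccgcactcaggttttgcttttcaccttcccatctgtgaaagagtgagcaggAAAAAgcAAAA
A run of at least 13 A, the length in MALAT1, was counted where it ended 100 nt or more before the 3′ end. It was present in 3.98% of 83129 protein-coding transcripts and in 1.92% of 56111 noncoding transcripts. These shares cover transcripts of every length, so they do not say how rare such a run is among RNAs as long as MALAT1. MALAT1 does not hold the longest run among the nuclear members. NEAT1-202 has 22 A from position 18046, far from the end shown, and MIAT-218 has 24 A from position 4271. A run of A is a description of the sequence: where cDNA was primed cannot be read from gene counts.

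MIAT is shown for its repeats. The 240-nt window of the 10143-nt transcript MIAT-218 with most copies of TACTAAC, read on the sense strand, runs from position 5654 to 5893 and holds 4 copies, in capitals.
MIAT-218: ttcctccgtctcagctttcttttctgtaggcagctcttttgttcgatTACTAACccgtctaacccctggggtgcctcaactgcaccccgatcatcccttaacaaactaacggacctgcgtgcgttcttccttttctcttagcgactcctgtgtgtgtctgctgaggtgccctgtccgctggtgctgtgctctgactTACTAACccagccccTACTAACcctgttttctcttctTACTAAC
The whole transcript holds 7 copies. The comparison was with 442 genes that have a transcript of a noncoding type of at least 5000 nt. The type is that of the transcript, so noncoding transcripts of protein-coding genes were not left out. Of these genes 14.5% held at least 1 copy, the median was 0 copies, and 2 genes, MIAT included, held 7 or more. NEAT1-202 held 1 copy and MALAT1-202 held 0.

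The snoRNAs inside the 2 host genes are both of the H/ACA class, whose hallmark is an ACA box 3 nt from the end, in capitals.
SNORA24-201: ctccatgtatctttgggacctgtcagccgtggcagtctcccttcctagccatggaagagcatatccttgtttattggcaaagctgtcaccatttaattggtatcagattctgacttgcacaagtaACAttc
SNORA78-201: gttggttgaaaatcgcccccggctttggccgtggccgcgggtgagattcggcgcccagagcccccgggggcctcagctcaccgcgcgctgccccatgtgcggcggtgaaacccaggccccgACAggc
SNORA24, of 131 nt, lies in an intron of 4 of the 5 SNHG8 transcripts and in an exon of 1. SNORA78, of 127 nt, lies in an intron of 1 of the 2 SNHG9 transcripts and in an exon of the other. The deposited counts are per gene and come from poly(A)-primed cDNA, so they describe the host RNAs. The snoRNAs themselves were not analysed here.

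The libraries held 9780800 to 11350113 counts. TMCC2 was lower with both guides, at 870 ± 58.6 CPM (counts per library size after TMM scaling; SD, n = 3) without a targeting guide, 224 ± 7.38 CPM with guide 1 and 245 ± 21.9 CPM with guide 2 (SD, n = 2 each). All 14 erythroid markers were tested genes, and their summed level was 251436 to 287657 CPM of total counts in the non-targeting libraries, 285390 to 286137 with guide 1 and 271997 to 275176 with guide 2. The 8 neutrophil and monocyte markers summed to at most 1.85 CPM in any library, with MPO, S100A8 and S100A9 at 0, and the 7 lymphocyte markers to at most 1.12 CPM. Megakaryocyte markers summed to 176 to 208 CPM without a targeting guide, 204 to 213 CPM with guide 1 and 183 to 198 CPM with guide 2, with PF4 and PPBP at 0. The 5 stromal and endothelial markers in the table summed to at most 0.368 CPM. Non-targeting replicate 1 lay apart from its group, as described further on, and the results are given with and without it.

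The members covered a wide range of levels. MALAT1 averaged 964 CPM over the 7 libraries and ranked 113th of the 10212 tested genes, and NEAT1 averaged 271 CPM at rank 460. SNHG8 averaged 22.3 CPM at rank 4067. MIAT averaged 5.57 CPM at rank 7031, and SNHG9 3.57 CPM at rank 7855. The order differs when levels are divided by length. In CPM per kb of the longest annotated transcript, MALAT1 was highest at 111 (78.4 to 207 over the libraries), followed by SNHG8 at 33.1 (30.6 to 36.7). NEAT1 stood at 11.9 (8.80 to 14.9) and SNHG9 at 7.58 (4.37 to 11.5), and these neighbours overlapped in range. MIAT was lowest, at 0.549 CPM per kb (0.357 to 0.782). MALAT1, SNHG8 and MIAT did not overlap with their neighbours in this order. The counts do not separate the short from the long form of NEAT1, so its value per kb is a lower figure than one computed on the short form. The highest library exceeded the lowest by 2.64-fold for MALAT1, 2.63-fold for SNHG9, 2.19-fold for MIAT, 1.69-fold for NEAT1 and 1.20-fold for SNHG8.

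**Figure D1:**
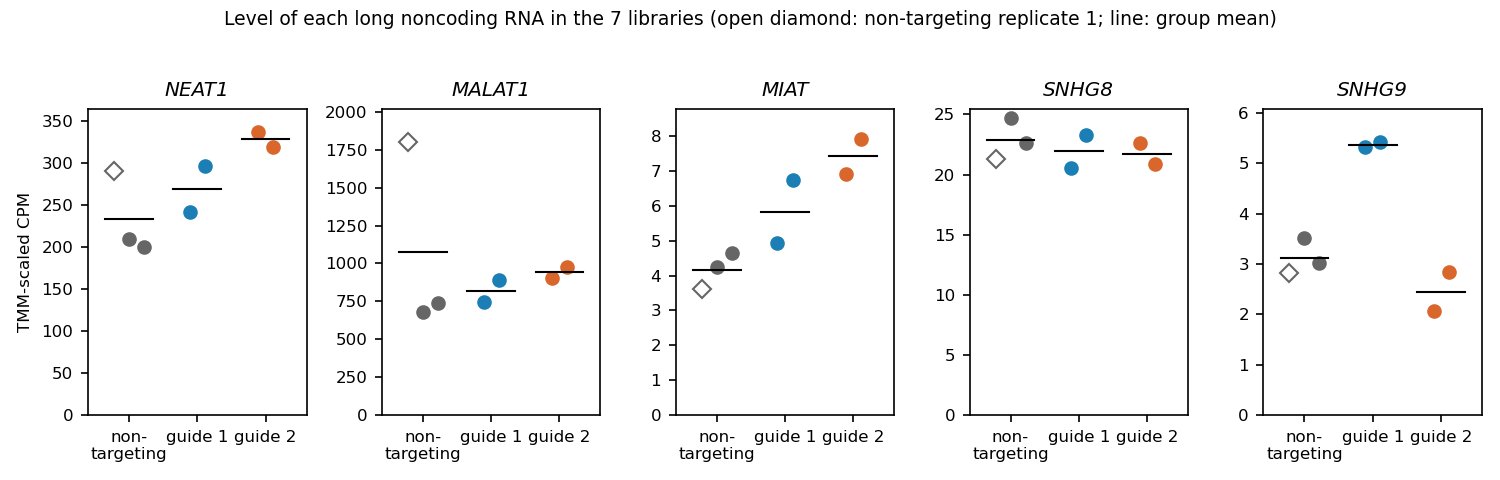
Level of each of the 5 members in TMM-scaled CPM (vertical axis, from 0, with its own scale for each gene) in the non-targeting, guide 1 and guide 2 groups; each point is a library, the open diamond is non-targeting replicate 1 and the line is the group mean. MALAT1 is at 1799 CPM in non-targeting replicate 1 and at 683 to 977 CPM elsewhere, while SNHG8 stays between 20.6 and 24.7 CPM.

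NEAT1 was higher in all guide libraries than in 2 of the 3 controls, while the control non-targeting replicate 1 lay among the guide libraries. The controls had 3288, 2333 and 1858 counts, which is 290, 210 and 200 CPM. Guide 1 gave 2458 and 3175 counts, at 242 and 297 CPM, and guide 2 gave 3613 and 3385, at 338 and 320 CPM. Both guide 2 libraries were above all 3 non-targeting libraries, whereas guide 1 replicate 1 was below non-targeting replicate 1. The group means were 234 ± 49.5 CPM (SD, n = 3), 269 ± 38.5 CPM and 329 ± 13.0 CPM (SD, n = 2 each). The fitted log2 fold change was 0.35 for both guides together (SE 0.13, 95% interval 0.08 to 0.62), 0.21 with guide 1 (SE 0.15) and 0.49 with guide 2 (SE 0.15, 95% interval 0.17 to 0.81). In bulk RNA a change in the amount per cell and a change in the share of cells that hold the RNA cannot be told apart.

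Without non-targeting replicate 1, the non-targeting mean of NEAT1 was 205 ± 7.04 CPM (SD, n = 2) and every guide library was above both remaining controls. The log2 fold change was then 0.54 for both guides (SE 0.07, 95% interval 0.39 to 0.68), 0.39 with guide 1 (SE 0.08, 95% interval 0.23 to 0.55) and 0.68 with guide 2 (SE 0.08, 95% interval 0.52 to 0.84). NEAT1 was among the genes called in these 3 comparisons of 6 libraries, and in none of them with all 7. NEAT1 in guide 2 against guide 1 differed by 0.29 in these 6 libraries (SE 0.08, 95% interval 0.13 to 0.45) and by 0.29 with all 7 (SE 0.17, 95% interval -0.07 to 0.64), and was called in neither.

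MALAT1 was set apart by a single control library. It had 20373 counts in non-targeting replicate 1, against 7581 and 6880 in the other 2 controls, 7605 and 9557 for guide 1, and 9691 and 10348 for guide 2. These counts correspond to 1799, 683 and 741 CPM in the non-targeting group, 749 and 893 CPM for guide 1, and 906 and 977 CPM for guide 2. Non-targeting replicate 1 was thus 2.53-fold above the mean of the other controls on the log scale and above every guide library, whereas the other controls were below every guide library. MALAT1 took 0.191% of all counts there and 0.0668% to 0.100% elsewhere. Its counts per NEAT1 count were 6.20 in that library, 3.25 and 3.70 in the other controls, 3.09 and 3.01 for guide 1, and 2.68 and 3.06 for guide 2. The ratio in non-targeting replicate 1 therefore lay outside the 2.68 to 3.70 spanned by the other 6 libraries.

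The sign of the MALAT1 difference depended on that library. With all 7 libraries the log2 fold change was -0.29 for both guides (SE 0.24, 95% interval -0.81 to 0.23), -0.39 with guide 1 (SE 0.30) and -0.19 with guide 2 (SE 0.30). Without non-targeting replicate 1 it was 0.31 for both guides (SE 0.06, 95% interval 0.18 to 0.43), 0.21 with guide 1 (SE 0.07) and 0.40 with guide 2 (SE 0.07, 95% interval 0.26 to 0.55). MALAT1 was called higher in the 6 libraries for both guides and for guide 2, and not for guide 1. Guide 2 against guide 1 gave 0.20 (SE 0.32, 95% interval -0.49 to 0.89) with all 7 libraries and 0.20 (SE 0.07, 95% interval 0.06 to 0.34) without that control, and was called in neither.

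MIAT was the member that was higher in every guide library than in every control, at low counts. It had 41, 47 and 43 counts in the controls, against 50 and 72 for guide 1 and 74 and 84 for guide 2. In CPM these were 3.62, 4.23 and 4.63 without a targeting guide, 4.92 and 6.73 for guide 1, and 6.92 and 7.93 for guide 2. The lowest guide library and the highest control were separated by less than the spread within the guide 1 group. The group means were 4.16 ± 0.509 CPM (SD, n = 3), 5.83 ± 1.27 CPM and 7.42 ± 0.714 CPM (SD, n = 2 each). The log2 fold change was 0.66 for both guides (SE 0.20, 95% interval 0.24 to 1.10), 0.49 with guide 1 (SE 0.24, 95% interval -0.02 to 1.00) and 0.84 with guide 2 (SE 0.23, 95% interval 0.34 to 1.34). Here non-targeting replicate 1 was the lowest control, and without it the values were 0.57, 0.40 and 0.75. MIAT was not called in any of these comparisons, and the guides differed by 0.35 (SE 0.25, 95% interval -0.18 to 0.88).

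With non-targeting replicate 1 set aside, MALAT1 and MIAT placed the remaining 6 libraries in the same order, from the non-targeting through the guide 1 to the guide 2 libraries. NEAT1 gave the same order of groups, with the libraries of the non-targeting and guide 2 groups exchanged within their group. Pearson's r between MALAT1 and MIAT was 0.997 in these 6 libraries and -0.23 in all 7. The share of all genes that give such an order was not taken, so nothing is read from it. Among these 6, the guide 2 libraries also had the lowest correlations with GC content, at 0.09 and -0.31, as described further on. The part of GC content in the order was not tested.

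SNHG8, the more abundant snoRNA host, was the least variable member. The controls had 241, 274 and 210 counts, guide 1 gave 209 and 249, and guide 2 gave 242 and 221. In CPM these were 21.3, 24.7 and 22.6, then 20.6 and 23.3, then 22.6 and 20.9, and all groups overlapped. The log2 fold change was -0.07 for both guides (SE 0.12, 95% interval -0.33 to 0.20), -0.06 with guide 1 and -0.07 with guide 2. The interval leaves room for a change of up to 0.33 downwards on the log2 scale, so a small difference was not detectable at this number of libraries.

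SNHG9 was the member whose guides lay on opposite sides of the control mean. The controls had 32, 39 and 28 counts, guide 1 gave 54 and 58, and guide 2 gave 22 and 30. The CPM values were 2.83, 3.51 and 3.02, then 5.32 and 5.42, then 2.06 and 2.83. Both guide 1 libraries were above all other libraries, and the guide 2 libraries overlapped the controls. The 95% Poisson intervals of the counts, which cover counting error only, were 40.6 to 70.5 and 44.0 to 75.0 for guide 1, and 13.8 to 33.3 and 20.2 to 42.8 for guide 2. Those of the controls ran from 18.6 to 53.3 and overlapped those of guide 2. They also overlapped those of guide 1, except in non-targeting replicate 3, at 18.6 to 40.5.

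The log2 fold change of SNHG9 was 0.78 with guide 1 (SE 0.25, 95% interval 0.24 to 1.33), -0.35 with guide 2 (SE 0.28, 95% interval -0.96 to 0.26) and 0.21 for both together (SE 0.23, 95% interval -0.27 to 0.70). Guide 2 against guide 1 gave -1.13 (SE 0.29, 95% interval -1.76 to -0.51), the difference for which the gene had been named. It was not called in any comparison, with or without non-targeting replicate 1. RPS2, the ribosomal protein gene that lies next to SNHG9 on chromosome 16 on the other strand, had 2694 to 3723 counts per library. No annotated gene other than SNORA78 overlaps SNHG9. The SNHG8 gene, on chromosome 4, likewise holds only SNORA24. MALAT1, on chromosome 11 near NEAT1, is overlapped by an antisense long noncoding RNA, and MIAT, on chromosome 22, by genes on both strands, so reads of these partners could be counted with them in unstranded libraries.

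**Figure D2:**
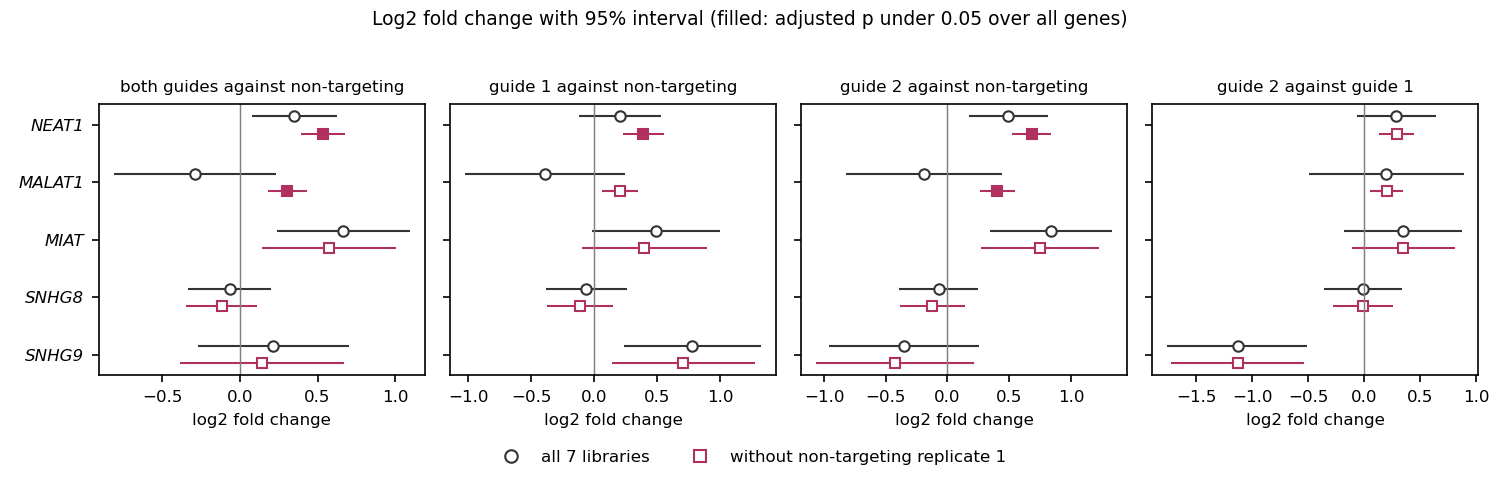
Log2 fold change (horizontal axis) of the 5 members in the 4 comparisons, with the 95% interval of the fit as a line, for all 7 libraries (circles) and without non-targeting replicate 1 (squares); filled symbols mark genes called at an adjusted p under 0.05 over all tested genes. NEAT1 moves from 0.35 to 0.54 and MALAT1 from -0.29 to 0.31 for both guides when that library is left out, while the symbols of MIAT, SNHG8 and SNHG9 are unfilled in all panels.

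The counts of members called are read against all genes. With all 7 libraries, edgeR's quasi-likelihood test called 0 of 5 members at an adjusted p under 0.05 in each comparison. The background was 0.0196% of genes for both guides, 0.0294% for guide 1, 0.00979% for guide 2 and 0% for guide 2 against guide 1. With non-targeting replicate 1 left out, it called 2 of 5 for both guides, against 0.524% of 10107 genes, and the same 2 for guide 2, against 1.27%. It called 1 of 5 for guide 1, against 0.584%, and 0 between the guides, against 0.317%. The members were picked with results of these contrasts known, so nothing is read from their share.

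Non-overlap of the groups was common among all genes. For both guides with all 7 libraries, 1 of 5 members, MIAT, had all guide libraries above all controls, against 3.03% of genes. With that control left out there were 3, NEAT1, MALAT1 and MIAT, against 8.74%. For guide 1, MIAT and SNHG9 were entirely above the controls, against 11.3% of genes, and for guide 2 NEAT1 and MIAT were, against 8.16%. With the 2 other controls alone, 4 members were entirely higher with guide 1, against 19.5%, and 3 with guide 2, against 21.9%, where SNHG9 was entirely lower, against 21.5%. Between the guides 3 members were entirely higher with guide 2, NEAT1, MALAT1 and MIAT, against 21.9% of genes, and SNHG9 was entirely lower, against 22.2%.

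Non-targeting replicate 1 differed from the other libraries along the GC content of transcripts. Across 9424 tested genes with an annotated transcript, the deviation of a library from the mean of the others had a Spearman correlation with GC content of -0.69 in that library. The coefficient was 0.43 and 0.32 in the other controls, 0.41 and 0.28 with guide 1, and 0.09 and -0.31 with guide 2. Genes are not independent replicates, and these are descriptions of the libraries. In the fifth of genes with the lowest GC content, the median deviation of non-targeting replicate 1 was 0.43 on the log2 scale, and in the fifth with the highest it was -0.29.

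The members fell differently on this pattern. MALAT1, with 40.3% GC in its longest transcript, was 1.14 above the mean of the other 6 libraries on the log2 scale, the 64th highest of the 10212 genes. The 1751 genes within 2 percentage points of its GC content had a median deviation of 0.33, and 15 of them lay above MALAT1. NEAT1, with 44.1% GC, deviated by 0.15, close to the median of 0.14 of the 1583 genes of like GC content. SNHG8, with 49.3% GC, deviated by -0.07, and SNHG9, with 66.5% GC, by -0.29. MIAT deviated by -0.64 with a GC content of 51.8%, the 334th lowest deviation. The other 6 libraries include the guide libraries, so these deviations also hold any difference with the guides. Against the mean of the other controls alone, MALAT1 deviated by 1.34, NEAT1 by 0.50 and MIAT by -0.28. SNHG8 was then at -0.15 and SNHG9 at -0.19, and the median over all tested genes was 0.01. Medians of genes of like GC content were not taken against the controls alone. Mitochondrial genes took 1.08% of counts in non-targeting replicate 1, 1.01% and 0.947% in the guide 2 libraries, and 0.874% to 0.908% in the other 4. Globin genes took 23.0% in non-targeting replicate 1, 25.7% and 25.2% with guide 2, and 26.1% to 26.9% in the other 4. The guide 2 libraries, in which NEAT1 and MALAT1 were highest among the 6, thus lay between non-targeting replicate 1 and the others in both shares, as in the GC correlation. The part of RNA quality or library preparation in the values of the members was not tested.

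**Figure D3:**
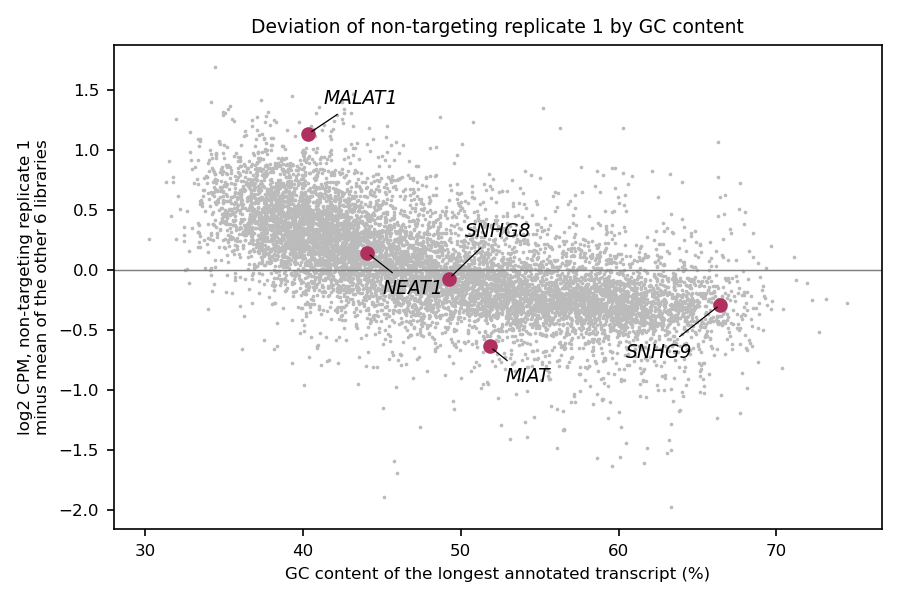
Deviation of non-targeting replicate 1 from the mean of the other 6 libraries in log2 CPM (vertical axis) against the GC content of the longest annotated transcript in percent (horizontal axis); grey points are tested genes and red points the 5 members. Genes of low GC content lie above 0 and genes of high GC content below it, and MALAT1 lies 1.14 above 0 where genes of like GC content have a median of 0.33.

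The fits were repeated with each library corrected for its trend over GC content. With all 7 libraries, the MALAT1 log2 fold change for both guides was then -0.16 (SE 0.16), that of NEAT1 0.38 (SE 0.09) and that of MIAT 0.64 (SE 0.19). No member was called in any comparison, against 0.0588% of genes for both guides, 0.176% for guide 1, 0.0392% for guide 2 and 0.0196% between the guides. With the correction and without non-targeting replicate 1, NEAT1 was at 0.51 (SE 0.06) and MALAT1 at 0.24 (SE 0.05) for both guides, and at 0.63 and 0.29 for guide 2. Both were called there, against a background of 0.406% of genes for both guides and 0.336% for guide 2. For guide 1 NEAT1 was called at 0.38 (SE 0.07), against 0.693%, and MALAT1 was not, at 0.20 (SE 0.06). Between the guides no member was called, against 0.277%.

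The proteins and RNAs around the members were described from 7 lists. None of their genes was called with all 7 libraries in any comparison. For both guides, 0 to 2 genes of each list had an unadjusted p under 0.05 in edgeR's test, and the median over all tested genes was -0.01 on the log2 scale, with 46.1% of genes above 0. Each list had a median between -0.06 and 0.02.

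Of 20 other snoRNA hosts, listed as long noncoding, 10 had a row and 8 were tested, 4 above and 4 below 0, with a median of 0.01. They ranged from -0.61 for LINC00324, with 5 to 17 counts per library, to 0.57 for SNHG12, with 25 to 51. Without non-targeting replicate 1 these were at -0.42 and 0.68. Of the 8, 1 had an unadjusted p under 0.05 by edgeR's test in each set of libraries. The 8 included TAF1D, at -0.01, which is a protein-coding gene. ZFAS1, which hosts several C/D box snoRNAs, had 58.8 ± 0.688 CPM (SD, n = 3) in the controls and 60.2 ± 2.46 CPM (SD, n = 4) in the guide libraries, a log2 difference of 0.03 (SE 0.10). SNHG10 differed by -0.16 (SE 0.17) and EPB41L4A-AS1 by 0.04 (SE 0.14), and by -0.06 and -0.07 without non-targeting replicate 1. Among 35 protein-coding snoRNA hosts, 8 were above and 27 below 0 for both guides, with a median of -0.02. The translation-linked gene TPT1 differed by -0.16 (SE 0.12) and the ribosome biogenesis gene WDR43 by -0.18 (SE 0.14). Leaving out non-targeting replicate 1 moved TPT1 to 0.03 and WDR43 to -0.02. With guide 1, 23 of these hosts were above 0 and 12 below with all 7 libraries, and the split turned to 7 above and 28 below without that control, the median going from 0.04 to -0.03.

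Without non-targeting replicate 1, 8 of the 35 protein-coding hosts fell with guide 2 by edgeR's test with Benjamini-Hochberg adjustment, against 0.89% of all genes called lower, and the median of the list was -0.14. They encode ribosomal proteins and the elongation factor EEF2, and examples, chosen after their values were seen, are RPL30 at -0.36 (SE 0.08, adjusted p = 0.0165), RPS2 at -0.34 (SE 0.07, adjusted p = 0.0160) and EEF2 at -0.27 (SE 0.06, adjusted p = 0.0160). RPL30 was also lower with guide 2 than with guide 1, by -0.41 (SE 0.08, adjusted p = 0.00813), the only host of the 35 called there, against 0.317% of all genes. With the GC correction on the same 6 libraries, 1 of the 8 remained called, RPS3, at -0.27 (adjusted p = 0.0230 by edgeR). The other 7 were still below 0, among them RPL30 at -0.29 (adjusted p = 0.0605) and RPS2 at -0.24 (adjusted p = 0.115). The RPL30 difference between the guides was still called with the correction, at -0.35 (adjusted p = 0.0179).

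Of 16 core and assembly proteins of snoRNA particles, 7 were above and 9 below 0 for both guides. GAR1, a core protein of H/ACA particles, differed by -0.29 (SE 0.15, unadjusted p = 0.0829 by edgeR), NOLC1, an assembly factor, by 0.15 (SE 0.12), and NOP58, a core protein of C/D box particles, by 0.14 (SE 0.14). Of 19 genes of nonsense-mediated decay, 10 were above and 9 below 0, with SMG9 at 0.37 (SE 0.19), UPF2 at 0.17 (SE 0.10) and EIF4A3 at -0.20 (SE 0.13). Without non-targeting replicate 1, SMG9 was at 0.18, EIF4A3 at -0.30 and NOP58 at 0.28. None of these 6 was called in either set of libraries.

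For the nuclear bodies of NEAT1 and MALAT1, 15 paraspeckle protein genes split into 7 above and 8 below 0, with a median of -0.03. SFPQ, needed to build paraspeckles, differed by 0.16 (SE 0.12) and CPSF6 by -0.12 (SE 0.11), and by 0.24 and -0.03 without non-targeting replicate 1. Of 18 nuclear speckle genes, 11 were above and 7 below 0. SRRM2, a structural protein of speckles, had 179 ± 21.4 CPM (SD, n = 3) in the controls and 212 ± 8.51 CPM (SD, n = 4) in the guide libraries, a difference of 0.24 (SE 0.10, unadjusted p = 0.0330 and adjusted p = 0.998 by edgeR). ACIN1 differed by 0.27 (SE 0.12) and RBM25 by 0.25 (SE 0.13). With non-targeting replicate 1 left out, SRRM2 was at 0.15 and ACIN1 at 0.17. Without non-targeting replicate 1, the speckle genes CLK1, LUC7L3 and RBM25 rose with guide 2, against 0.376% of all genes called higher. Named after their values were seen, they were at 0.40 (adjusted p = 0.0298), 0.44 (adjusted p = 0.0317) and 0.53 (adjusted p = 0.0361) on the log2 scale by edgeR. With the GC correction on those libraries, 0 of these 3 were called, at 0.22, 0.29 and 0.40.

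**Figure D4:**
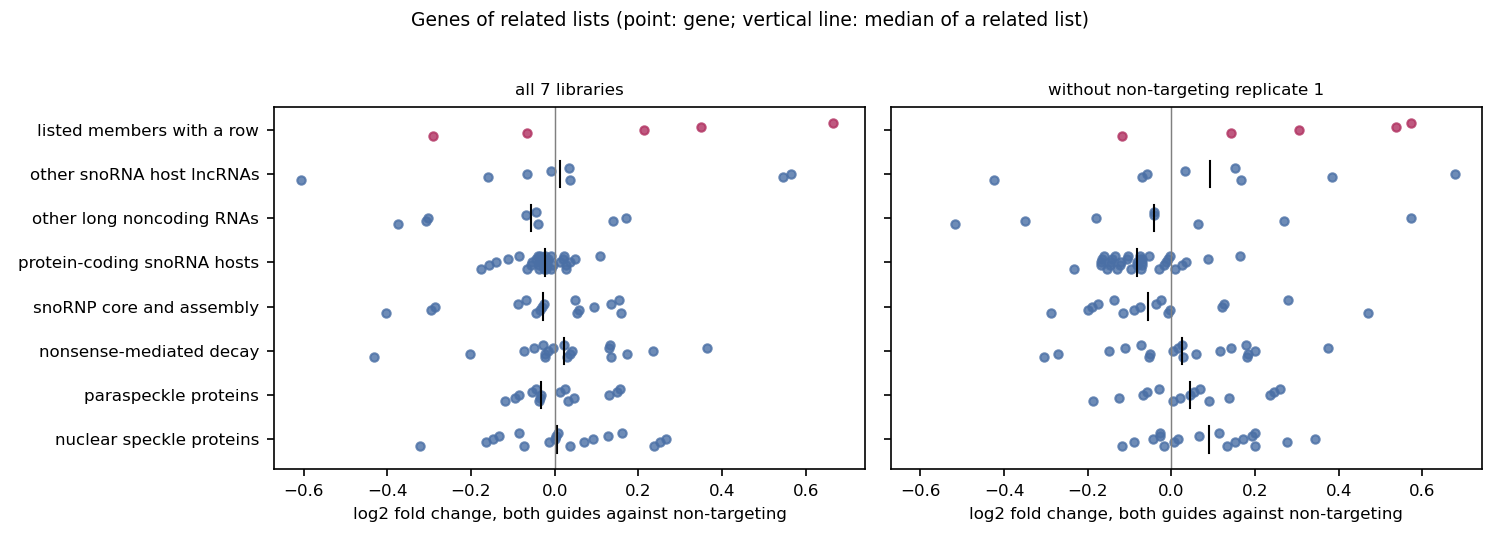
Log2 fold change for both guides against the non-targeting guide (horizontal axis) of the 5 members (red) and of the tested genes of 7 related lists (blue), with all 7 libraries on the left and without non-targeting replicate 1 on the right; each point is a gene and each vertical line the median of a related list. The list medians lie between -0.06 and 0.02 on the left and between -0.08 and 0.09 on the right.

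Among 18 other long noncoding RNAs, 13 had a row and 8 were tested, 2 above and 6 below 0 for both guides, with a median of -0.06. NORAD, listed under its earlier symbol LINC00657, is a cytoplasmic RNA that binds Pumilio proteins. It had 36.0 ± 10.4 CPM (SD, n = 3) in the controls and 29.3 ± 4.85 CPM (SD, n = 4) in the guide libraries, a log2 difference of -0.31 (SE 0.16) that was -0.04 without non-targeting replicate 1, where it had 542 counts against 256 to 382 elsewhere. KCNQ1OT1, an imprinted antisense RNA, differed by 0.17 (SE 0.25) and CYTOR, listed as LINC00152, by -0.07 (SE 0.12), and by 0.27 and -0.18 without that library.

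The genes whose levels followed each member most closely were taken from the 7127 tested genes (7128 for SNHG9) with a mean of at least 5 CPM and an ordinary symbol, by Pearson's r of log2 CPM over the 7 libraries. The libraries share their depth and GC content patterns, so these values are a description, with no test. MALAT1 was followed by TMEM33 (r = 0.999, and 0.995 without non-targeting replicate 1) and SLC25A46 (r = 0.998 and 0.989), with 36.5% and 32.1% GC in their longest transcripts. For NEAT1 the closest were FIG4 (r = 0.991 and 0.990) and UTP3 (r = 0.976 and 0.992). MIAT was followed by NDUFA1 (r = 0.963 and 0.943). The closest to SNHG8 were PRMT7 (r = 0.923 and 0.979) and RGL2 (r = 0.920 and 0.952), and to SNHG9 they were NDE1 (r = 0.942 and 0.939) and IL1RN (r = 0.938 and 0.937).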

How the data were processed

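Per the file header, the table the authors deposited holds unscaled read counts by gene symbol, a column for each library. STAR and the build GRCh37 (hg19) are named in the submitters' processing notes. How reads were counted, with which annotation and strand setting, and how reads with several alignments were treated is not given in the sources used here. CPM, log2 fold changes, standard errors and intervals were computed from these counts.

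edgeR 4.0.16 (R 4.3.3) was used, with filterByExpr (minimum count 10), TMM scaling and a quasi-likelihood fit of the 3 groups, without covariates, to all 7 libraries (4 residual degrees of freedom, biological coefficient of variation 12.5%). Tests were two-sided F-tests, with p-values adjusted by Benjamini-Hochberg over all tested genes and calls at 0.05. DESeq2 1.42.0 was an alternative.

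The members, the 12 gene lists, the tests and the alternatives were chosen with earlier results of these data known. Genes named from a related list were up to 3 of smallest unadjusted p for both guides with a mean of at least 5 CPM, and for likeness the 2 with the highest r per member. Symbols that mark clones, pseudogenes, small RNAs or readthrough were left out of the search for likeness. For 4 list genes an older symbol was used. Some genes taken by these rules, and 1 sequence, are not reported here.

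GC content and length are of the longest GENCODE release 29 transcript, matched by symbol to 92.3% of tested genes. The GC correction, added after the data were seen, used the lowess trend (span 0.3) of each library as an offset. On simulated counts for both guides, the uncorrected fit of 10075 genes recovered 83.7% of genes with a simulated log2 change of 1 and 25.7% of those with 0.5, with 10 of 110 calls false. With a GC trend put into 1 control library, shares on 10050 genes were 47.1% and 3.74% without the correction and 82.8% and 36.4% with it. Of those calls, 0 of 45 were false without the correction and 7 of 118 with it. The trend put in was steeper than that of non-targeting replicate 1. These shares therefore do not measure the gain on the real libraries.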

Additional observations from a re-analysis of the deposited data

Results flagged for a closer look

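In SNHG9 both guide 1 libraries were above and both guide 2 libraries below the mean of the non-targeting libraries, although the guide 2 libraries overlapped the controls. The log2 difference of guide 2 against guide 1 was -1.13, from 22 to 58 counts per library. It was not called by edgeR over all tested genes, and since the gene had been named for this difference, no p is given.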

How the results depend on the processing

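The fit with all 7 libraries called 2 genes for both guides, 3 for guide 1, 1 for guide 2 and 0 between the guides, and none was a member. In that order the counts were 4, 6, 3 and 2 with DESeq2, 8, 19, 4 and 2 without a filter on low counts, 6, 18, 4 and 2 with the GC correction, and 41, 70, 34 and 28 with that correction on 6 libraries. A replicate block gave 1, 2, 1 and 1. The labels do not say that same-numbered libraries were made together, so the numbers were not taken to pair them. The deviations of same-numbered libraries had r from -0.19 to 0.03. With 2 libraries per guide, the deviations within a guide are mirror images, so these values cannot decide whether libraries were paired. Leaving out 1 library at a time gave 1 to 53, 1 to 59, 1 to 128 and 0 to 32 genes, the highest each time without non-targeting replicate 1. It gave 1 gene for both guides without guide 1 replicate 2, 1 for guide 1 without either of its libraries, and 1 between the guides without non-targeting replicate 2. Where 1 guide library remained, it was assumed to vary like the others. Members called ranged from 0 to 2, 0 to 1, 0 to 2 and 0 to 0, and were 2, 1, 2 and 0 with the GC correction on 6 libraries. Leaving out 1 library placed MALAT1 between -0.53 and 0.31 for both guides and between -0.43 and 0.40 for guide 2. It was at 0.31 (both guides), 0.21 (guide 1) and 0.40 (guide 2) without non-targeting replicate 1, and at 0.24, 0.20 and 0.29 with the correction as well. NEAT1, MIAT and SNHG9 kept their sign in all 14 alternatives, although NEAT1 with guide 1 dropped to 0.05 and MIAT to 0.25 without guide 1 replicate 2. SNHG8 changed sign in 1 alternative for guide 1 and 5 between the guides, always near 0. The depth limits MIAT and SNHG9 most, at 22 to 84 counts per library.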
